A study of Mus musculus with 6 samples.

Results

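The 6 arrays of this series fall into 3 from even and 3 from odd columns of the slide, and the split runs across the treatment. The even columns held control replicate 2 and PNP replicates 1 and 3, and the odd columns held control replicates 1 and 3 and PNP replicate 2, so all 6 of 6 arrays enter the comparison. All were TM3 cells, a male mouse line derived from testicular Leydig cells, kept for 24 h either without (control, 0 µM) or with 10 µM 4-nitrophenol (PNP), a nitrated phenol known from parathion breakdown and diesel exhaust. Each array was read on 1 channel, and rows and columns were taken from the position on the slide that the scanner output records. The split was selected on the measured signals of these arrays: an earlier look at them had shown more genes of small p between columns than between doses. The differences between columns are therefore given as descriptions, with a standard error (SE) and no test. Slide column, the state of the cultures and exchanged labels cannot be told apart in this design. No source used here states that replicates were separate cultures, and p-values given for PNP therefore cover the spread among these 6 samples alone, possibly a technical one.

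The genes that set the columns apart belong in part to the response to low oxygen. In this response the factor HIF1, held down by prolyl hydroxylases when oxygen is plentiful, binds a short core sequence near its targets and raises glycolysis, lactate export and acid removal. Cd68 marks lysosomes, whose genes answer to nutrient supply through factors that bind an overlapping sequence, and osteopontin (Spp1) and Ccn5 are secreted proteins of the matrix. Clustered histone and replication genes serve S phase, when DNA is copied, and interferon genes serve antiviral defence.

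Lists of HIF target and glycolysis genes, not the HIF core, grouped the genes below. The promoters of 5 of them that were at least 1.5-fold lower in even columns and hold that core are shown. Each covers 250 bases before to 50 after the gene's start in RefSeq on build GRCm38.p6, from the gene's own strand. Capitals mark ACGTG or GCGTG and their reverse complements, CACGT and CACGC. The first of these lies within the E-box CACGTG, so a match is not particular to HIF. The Car9 promoter is at chr4:43506776-43507075 (plus strand), that of Slc16a3 at chr11:120948817-120949116 (plus), that of Pfkl at chr10:78009758-78010057 (minus), that of Ankrd37 at chr8:45999801-46000100 (minus) and the upstream of 2 Pdk1 promoters at chr2:71872974-71873273 (plus).
Car9: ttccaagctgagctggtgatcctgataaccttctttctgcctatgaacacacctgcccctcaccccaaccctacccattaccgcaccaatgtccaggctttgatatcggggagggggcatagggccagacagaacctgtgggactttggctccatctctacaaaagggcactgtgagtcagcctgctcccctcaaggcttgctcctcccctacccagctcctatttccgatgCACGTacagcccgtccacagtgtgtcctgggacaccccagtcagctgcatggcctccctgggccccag
Slc16a3: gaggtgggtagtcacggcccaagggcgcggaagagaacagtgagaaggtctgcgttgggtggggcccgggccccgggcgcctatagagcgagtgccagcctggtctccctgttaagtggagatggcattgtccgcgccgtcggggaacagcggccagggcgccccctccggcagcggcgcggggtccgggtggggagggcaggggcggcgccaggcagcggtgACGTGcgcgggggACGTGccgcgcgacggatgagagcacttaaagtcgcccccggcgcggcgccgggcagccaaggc
Pfkl: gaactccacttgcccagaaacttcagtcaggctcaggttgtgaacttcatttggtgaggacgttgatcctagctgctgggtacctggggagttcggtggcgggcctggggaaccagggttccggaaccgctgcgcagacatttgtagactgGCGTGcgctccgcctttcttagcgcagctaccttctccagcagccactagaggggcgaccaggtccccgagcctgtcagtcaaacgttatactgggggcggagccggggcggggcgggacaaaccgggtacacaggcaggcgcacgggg
Ankrd37: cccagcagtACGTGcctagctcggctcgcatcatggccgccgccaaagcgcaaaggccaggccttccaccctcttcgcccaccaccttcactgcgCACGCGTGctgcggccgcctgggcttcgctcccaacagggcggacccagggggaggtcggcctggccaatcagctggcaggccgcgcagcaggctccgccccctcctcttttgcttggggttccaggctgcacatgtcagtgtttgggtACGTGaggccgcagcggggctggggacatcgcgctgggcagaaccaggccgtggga
Pdk1: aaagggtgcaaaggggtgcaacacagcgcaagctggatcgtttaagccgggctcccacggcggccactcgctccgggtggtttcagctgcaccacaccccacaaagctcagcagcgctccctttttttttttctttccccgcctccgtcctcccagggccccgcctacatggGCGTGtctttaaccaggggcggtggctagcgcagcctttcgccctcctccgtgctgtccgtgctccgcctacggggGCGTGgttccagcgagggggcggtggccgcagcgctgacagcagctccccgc

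Car9, Pfkl, Slc16a3, Pdk1 and Ankrd37 held 1, 1, 2, 2 and 4 such matches in these windows. The other Pdk1 promoter, not shown, held 0. In all, 7 of the 56 HIF target and glycolysis genes measured (12.5%, against 1.09% of all genes) were at least 1.5-fold lower in even columns with no overlap (those 5, Stc1 and Tfrc). Of the 7, 3 are markers that named the split (Car9, Slc16a3 and Stc1). Without these markers, 2 of 29 HIF targets and 2 of 24 glycolysis genes were so. Among the 7 genes, 6 matched a promoter, and all 6 held these letters. The letters occur in 43.8% of all 32851 promoters of this length and in at least 1 promoter of 46.7% of 27025 genes. Of the 54 genes of both lists that matched a promoter, whatever their signal, 47 (87.0%) held them. The share among the 6 is thus that of lists made of known HIF targets, and a match is a description of the sequence, not evidence of binding.

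Signals are given as the scaled log2 signal, which is the log2 processed signal of a probe minus the 75th percentile of its array, so that a difference of 1 is a 2-fold difference. Car9, carbonic anhydrase IX, which acidifies the surroundings of cells low in oxygen, had 0.67, 0.57 and 0.73 on the even arrays (control 2, PNP 1, PNP 3) and 1.46 and 1.42 on the odd control arrays 1 and 3. The spot of PNP 2, the other odd array, was marked as an outlier and left out, and its value of 1.56 stood with the odd controls. The even arrays lay together irrespective of dose, with means of 0.65 ± 0.08 (SD, n = 3) against 1.44 ± 0.03 (SD, n = 2), a difference of -0.79 (SE 0.10) or 1.72-fold. The other Car9 probe had -0.45, -0.44 and -0.69 on the even and 0.60, 0.46 and 0.52 on the odd arrays, with no overlap and a larger difference of -1.05.

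Slc16a3, the MCT4 exporter that carries lactate out of glycolytic cells, had 0.71, 0.70 and 0.55 on even arrays and 1.23, 1.38 and 1.28 on odd arrays. The columns did not overlap, and the difference was -0.65 (SE 0.09), or 1.56-fold. Stc1, stanniocalcin 1, a secreted glycoprotein of calcium and phosphate balance that low oxygen is known to induce, had -5.62, -5.70 and -6.51 on even and -4.47, -4.55 and -4.19 on odd arrays. It was not well above background on any even array and was so on all 3 odd arrays. Stc1 thus passed the filter on dim probes through the odd columns alone, so that a difference was bound to appear. Its signal in odd columns was therefore at least 2.04-fold higher, from the odd mean of -4.40 ± 0.19 (SD, n = 3) over the mean of the even arrays, each taken at the lowest signal it had above background or at the Stc1 signal where that was higher, while the measured even mean was -5.94 ± 0.49 (SD, n = 3). With another background correction (normexp on median spot signals, chosen after seeing the data) the Stc1 difference was -0.90 instead of -1.54.

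Spp1, osteopontin, a secreted phosphoprotein of bone and matrix, had 0.57, 0.81 and 0.80 on even and 1.54, 1.43 and 1.34 on odd arrays, a difference of -0.71 (SE 0.11), or 1.64-fold. Cd68, a glycoprotein of the lysosomal membrane, went the other way, with 0.90, 1.12 and 1.01 on even and 0.42, 0.26 and 0.40 on odd arrays. Its difference was 0.65 (SE 0.10), or 1.57-fold, and its other probe gave 0.86. Ccn5, a matricellular protein of the CCN family, had -3.64, -3.55 and -3.63 on even and -4.46, -4.48 and -4.71 on odd arrays, a difference of 0.94 (SE 0.10), or 1.92-fold, and 0.52 after normexp correction. These 6 genes named the split, so the like order of arrays in both doses describes how it was chosen.

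**Figure D1:**
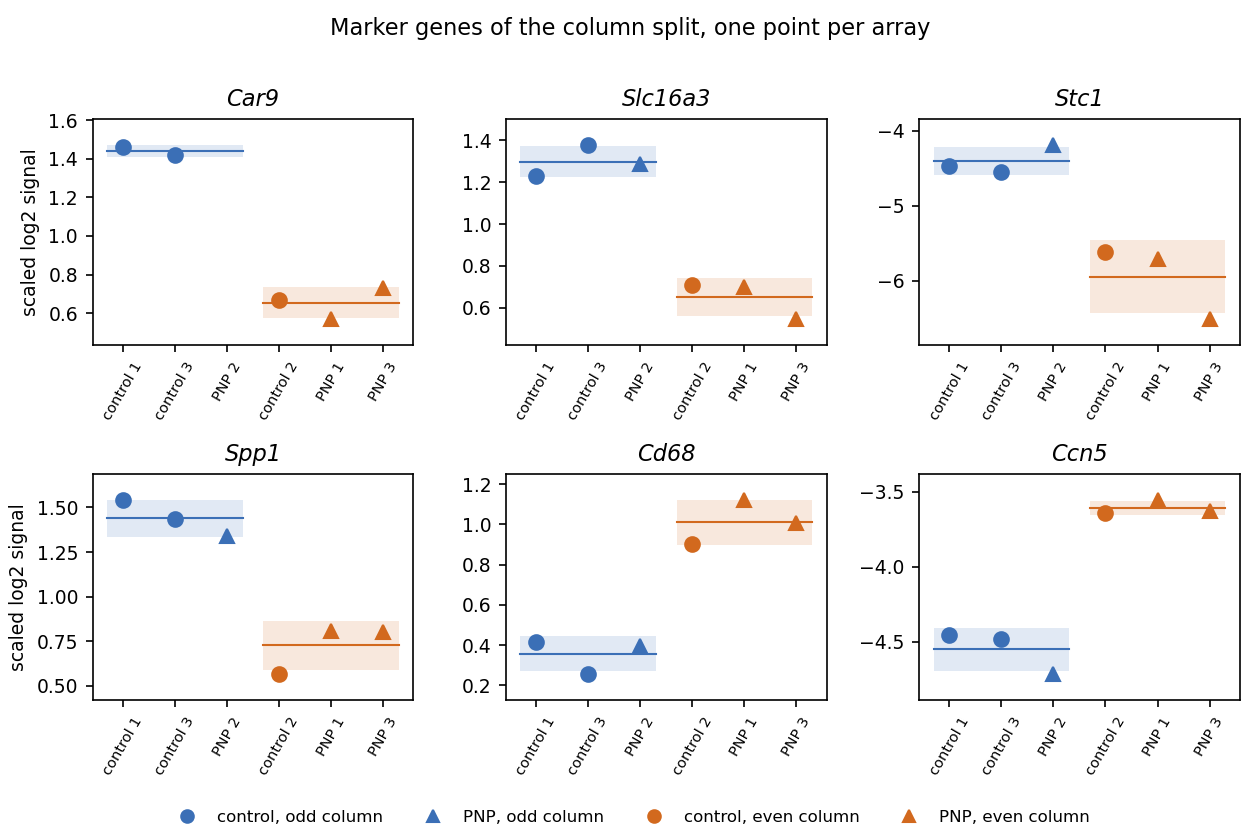
Scaled log2 signal (vertical axis, own range per gene) of the 6 marker genes on each array, odd columns at left and even columns at right, circles for controls and triangles for PNP; lines are means and bands are ± 1 SD. Control 2 sits with PNP 1 and PNP 3 in each panel, and PNP 2 sits with control 1 and control 3 wherever it has a value, since the Car9 spot of PNP 2 is left out.

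Over all 13269 genes measured, 40 (0.301%) were at least 2-fold apart with no overlap between the columns, 29 lower (0.219%) and 11 higher (0.0829%) in even columns. At 1.5-fold there were 239 (1.80%), 144 lower (1.09%) and 95 higher (0.716%). The higher ones thus made up 39.7% of them, but 57.7% with no filter on dim probes and 51.6% without control replicate 1, so neither direction prevails in all settings. The columns did not overlap for 2639 genes (19.9%), 1526 of them higher and 1113 lower in even columns, and the median difference over all genes was 0.02. In either direction, whatever the overlap, 55.2% of genes had a higher and 44.8% a lower mean in even columns. The gene just inside 2-fold was Tm4sf5, with a difference of -1.003, and the gene just outside was H3c1, with -0.988. The genes past 2-fold numbered 69 without control replicate 2, 25 when a probe had to be above background on all 6 arrays, 108 with no filter on dim probes and 11 after normexp correction. Over all non-control probes, named or not, with no filter on dim signals, 267 of 50109 (0.533%) were 2-fold apart with no overlap.

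Dim genes supplied most of these calls. Of 5 equal groups of genes by mean signal, the dimmest held 112 that were 1.5-fold apart, the next 72, then 39, then 15, and the brightest 1. Of the 40 genes past 2-fold, 25 were above background on all 6 arrays by the probe that stands for them, 6 were so on no even array and 2 on no odd array. Those 6 and 2 passed the filter on dim probes through the other column alone, so that a difference was bound to appear. Of 35 other probes for the genes 1.5-fold apart, 33 (94.3%) had the same direction and 23 (65.7%) did so with no overlap, against 65.2% and 15.6% of other probes over all genes. Over 4 parts of the array surface, from 1.53% to 2.16% of genes were 1.5-fold apart.

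**Figure D2:**
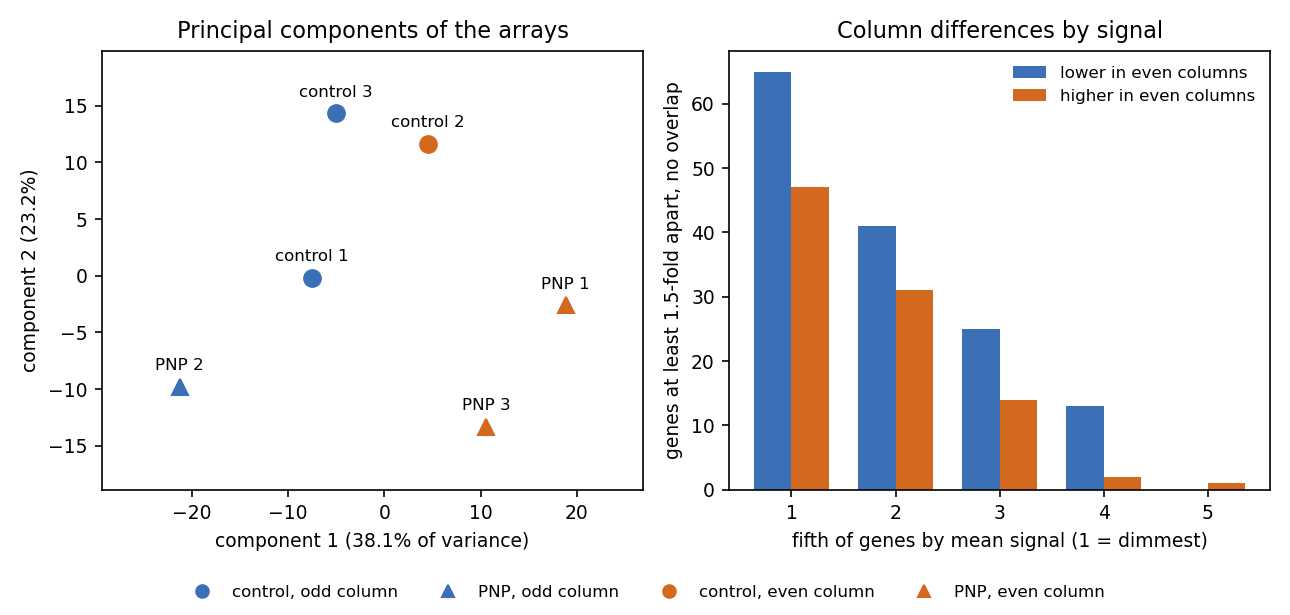
Left, each array on the first and second principal component of the genes with a value on all 6 arrays (circles, controls; triangles, PNP; orange, even columns; blue, odd columns), with even arrays from 4.51 to 18.8 and odd arrays from -21.3 to -5.08 on component 1. Right, number of genes at least 1.5-fold apart with no overlap (vertical axis, from 0) in each of 5 equal groups of genes by mean signal, falling from 112 in the dimmest to 1 in the brightest, lower and higher in even columns side by side.

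The first principal component took 38.1% of the variance and separated the columns. Even arrays had scores of 4.51 (control 2), 18.8 (PNP 1) and 10.6 (PNP 3), and odd arrays had -7.54 (control 1), -5.08 (control 3) and -21.3 (PNP 2). The columns did not overlap on it, but both controls and PNP arrays lay on each side, with the PNP arrays farther out.

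The 10 genes with the largest lower signal in even columns, among named genes with a value on all 6 arrays, included Stc1, whose 2.04-fold bound gives it no place in their order. Plac1, a placental secreted protein, had -2.06, -2.25 and -2.16 on even and -0.51, -0.89 and -0.56 on odd arrays, a difference of -1.51 (SE 0.12), or 2.84-fold, and its other probe gave -1.30. Tnmd, tenomodulin, a tendon membrane protein, had -3.25, -3.31 and -3.48 on even and -2.01, -2.13 and -2.09 on odd arrays, a difference of -1.27 (SE 0.10). Both had their arrays of each column within narrow ranges. Rnf112, a RING finger protein, differed by -1.37 (SE 0.15), whereas its other probe gave only -0.11, so its probes disagree. Mlc1, a membrane protein of astrocytes, differed by -1.28 (SE 0.19) and was above background on 1 even array.

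Hils1, a spermatid linker histone, Prss2, a trypsin, Slc39a4, an intestinal zinc importer, Aldh1a2, which makes retinoic acid, and Igfbp5, an IGF-binding protein, were not well above background on any even array. They passed the filter on dim probes through the odd columns alone. Their odd signals were at least 1.02-fold, 1.12-fold, 2.11-fold, 1.21-fold and 1.63-fold higher, in that order. Their measured means in even against odd columns were -6.86 against -5.40, -6.66 against -5.27, -5.67 against -4.35, -6.39 against -5.16 and -5.95 against -4.72.

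Among the genes higher in even columns, Cyp11b1, the steroid 11-beta-hydroxylase of the adrenal, had 0.29, 0.38 and 0.24 on even and -0.83, -0.65 and -0.80 on odd arrays. The difference was 1.06 (SE 0.09), or 2.08-fold, with no overlap. Avil, advillin, an actin-binding protein, differed by 1.27 (SE 0.18), with 1.08 from its other probe. Gimap8, a GTPase of lymphocytes, was read at 2.22 (SE 0.46) by a probe above background on the 3 even arrays alone, a bound of at least 2.58-fold between means of -4.18 and -6.40. A brighter Gimap8 probe, which kept values on only 3 arrays, gave 0.24, so that gene's probes disagree. Smad9, an effector of BMP signals, was at least 1.48-fold higher, its odd values not being above background, between means of -4.97 and -6.72. Akr1b7, an aldo-keto reductase of steroid-making tissue (1.09, SE 0.23), Apol7d, an apolipoprotein L (1.10, SE 0.25), AAdacl4fm3, of the arylacetamide deacetylase family (1.03, SE 0.21), Mfsd13b (1.01, SE 0.17), Ccn5 and Plekhb1 (0.93, SE 0.24) completed the set. The picking of extremes fixes their size and their lack of overlap.

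**Figure D3:**
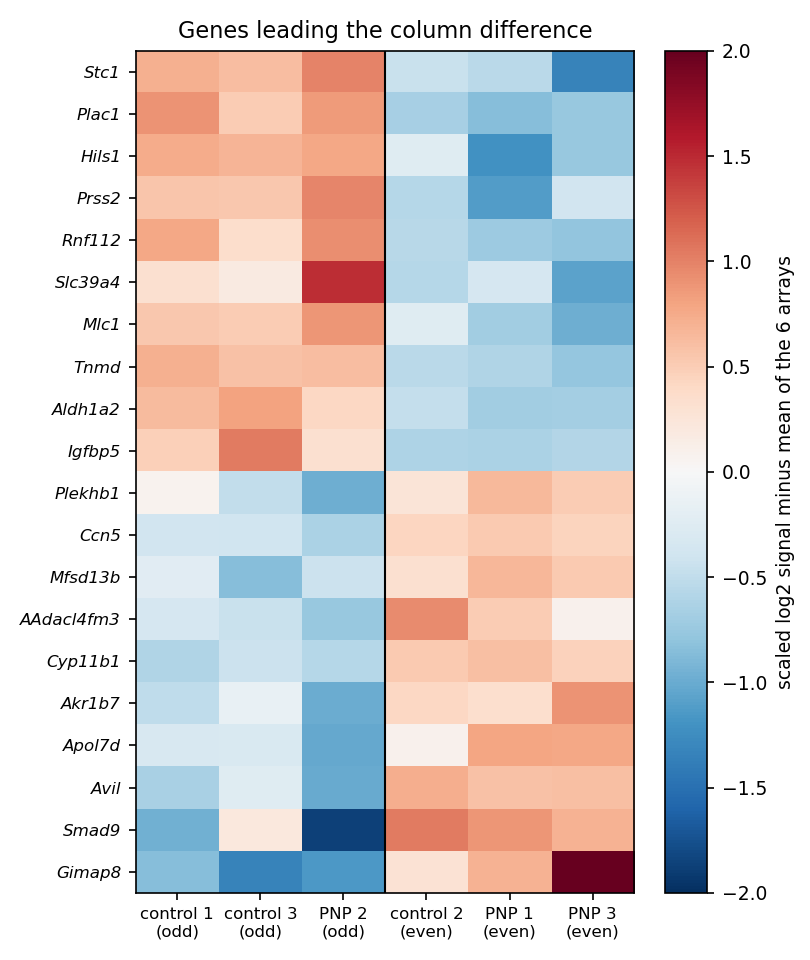
Scaled log2 signal minus the mean of the 6 arrays (colour, capped at -2 and 2) for the 10 named genes with the largest differences in each direction, odd columns left of the line and even columns right of it. Stc1, Plac1 and Tnmd are lower on every even array than on any odd array, and Cyp11b1 and Ccn5 are higher.

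HIF targets were mostly lower in even columns: of 38 listed genes 31 were measured, 24 with a lower mean (against 44.8% of all genes) and 7 with a higher one (against 55.2%), and the median difference was -0.13 against 0.02 over all genes. Lower with no overlap were 9 (29.0%, against 8.39% of all genes) and higher with no overlap 0 (against 11.5%). Car9 and Stc1, which named the split, are among the 9, and without them 7 of 29 (24.1%) remained. Tfrc, the transferrin receptor that brings in iron, had -2.13, -2.57 and -2.95 on even and -1.74, -1.48 and -1.24 on odd arrays, a difference of -1.06 (SE 0.21), with -1.41 from its other probe. Ankrd37, an ankyrin repeat protein, differed by -0.87 (SE 0.16) and the prolyl hydroxylase Egln3 by -0.53 (SE 0.14), each over 5 arrays. Bnip3, which acts in mitophagy, had 2.07, 2.40 and 2.15 on even and 2.60, 2.60 and 2.51 on odd arrays. Other well-known targets showed little: Vegfa, the vessel growth factor, differed by 0.06 (SE 0.14), Ndrg1 by 0.08 (SE 0.12) and Hilpda, of lipid droplets, by -0.04 (SE 0.10). The list's median difference relative to all genes was -0.15, and it was -0.09 without control replicate 1 or without control replicate 3 and -0.10 with dose in the fit. Within the controls the median was -0.17 and within the PNP arrays -0.04. The list medians by array, not set against all genes, overlapped between columns: control 2 stood at -0.15, but PNP 1 at 0.03, above PNP 2 at 0.02. The median over all genes was itself -0.04 on control 2, 0.07 on PNP 1 and 0.006 on PNP 2, so these values include an array-wide shift.

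The HIF factors and their oxygen sensors were measured for 6 of 10 genes, 5 of them higher (83.3%, against 55.2% of all genes) and 1 lower in even columns. Higher with no overlap was 1 (16.7%, against 11.5%) and lower with no overlap 0 (against 8.39%). Hif1a, the oxygen-regulated subunit, differed by 0.08 (SE 0.12), its partner Arnt by 0.13 (SE 0.11) and Arnt2 by 0.22 (SE 0.11).

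Glycolysis and lactate export genes had 18 of 25 measured members lower, 10 of them (40.0%, against 8.39%) with no overlap, and 0 higher with no overlap. Without the marker Slc16a3 these were 9 of 24 (37.5%). Pfkl, the liver-type phosphofructokinase at the committed step of glycolysis, had 1.00, 1.03 and 0.79 on even and 1.65, 1.54 and 1.49 on odd arrays, a difference of -0.62 (SE 0.10). Pdk1, a kinase that turns pyruvate away from mitochondria, had 0.49, 0.51 and 0.22 on even and 1.16 and 0.92 on odd arrays, control 1 being left out. Aldoc, an aldolase, differed by -0.53 (SE 0.18) and the glycogen synthase Gys1 by -0.35 (SE 0.09), both with no overlap. The glucose transporter Slc2a1 differed by -0.20 (SE 0.08), whereas Gapdh (0.08, SE 0.12), Aldoa (0.06, SE 0.13) and Pkm (-0.06, SE 0.09) stood near 0. The median relative to all genes was -0.13 and was -0.21 with no filter on dim probes. Within the controls the median was -0.21 and within the PNP arrays -0.06.

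DNA replication genes were lower in even columns for 34 of 35 measured members, 18 of them (51.4%, against 8.39%) with no overlap, though 0 reached 1.5-fold. The median difference was -0.17. Pola1, the catalytic subunit of the polymerase that starts new strands, had -1.66, -1.68 and -1.80 on even and -1.26 and -1.20 on odd arrays. Mcm3, of the replicative helicase, had 1.41, 1.45 and 1.12 on even and 1.66, 1.61 and 1.74 on odd arrays, and Lig1, the ligase that joins new fragments, differed by -0.34 (SE 0.11). Relative to all genes the list stood at -0.18, and at -0.30 without control replicate 2. Here the PNP arrays gave the larger difference, with a within-dose median of -0.25 against -0.09 in controls.

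Mitosis genes were lower for 19 of 22 measured members (86.4%, against 44.8% of all genes), 6 of them (27.3%, against 8.39%) with no overlap, with a median of -0.15. Kif23, a kinesin of the midbody, differed by -0.45 (SE 0.10), Kif2c, a kinesin that takes microtubules apart, by -0.38 (SE 0.11) and Anln, anillin of the contractile ring, by -0.39 (SE 0.15).

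Clustered histone genes, a list taken by symbol after their values had been seen, were lower for 35 of 39 measured members, 21 of them (53.8%, against 8.39% of all genes) with no overlap and 13 at least 1.5-fold (against 1.09%). The median was -0.93 within the controls and -0.28 within the PNP arrays. H2bc7 had -2.11, -1.63 and -1.03 on even and -0.30, -0.30 and -0.75 on odd arrays, a difference of -1.14 (SE 0.26), and H2ac13 differed by -1.01 (SE 0.24) and H3c8 by -0.88 (SE 0.23). Higher with no overlap were 2 (5.13%, against 11.5% of all genes), H2bc4 (0.52) and H2bc23 (0.55). Under quantile normalization 28 members were lower and 11 higher. The list's median relative to all genes was -0.53, and -0.87 without PNP replicate 3, the even array with the highest histone median. These genes are near-identical copies, so a probe can read several of them and single members are uncertain.

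Lysosomal and osteopontin-linked genes stood on the other side: 20 of 22 measured members were higher in even columns, 12 of them (54.5%, against 11.5%) with no overlap, and the median was 0.16. Without the markers Cd68 and Spp1 these were 19 and 11 of 20. Besides Cd68, the cysteine protease Ctsl had -3.07, -2.89 and -2.55 on even and -3.28, -3.64 and -3.43 on odd arrays, a difference of 0.62 (SE 0.15). Neu1, the lysosomal sialidase, had 0.73, 1.06 and 0.93 on even and 0.41, 0.44 and 0.03 on odd arrays, a difference of 0.61 (SE 0.14). The cholesterol exporter Npc1 (0.41, SE 0.11) and the calcium channel Mcoln1 (0.27, SE 0.09) also did not overlap. Lamp1 (0.04, SE 0.12) and Grn (0.08, SE 0.14) stood near 0, and besides Spp1 the 1 other lower member was the cholesterol carrier Npc2 (-0.06, SE 0.11). With no filter on dim probes the median relative to all genes was 0.09 instead of 0.14.

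Type I interferon genes were higher in even columns for 17 of 18 measured members, 9 of them (against 11.5% of all genes) with no overlap, and 0 at 1.5-fold. The median was 0.26. Irf7, which amplifies interferon production, had -0.93, -0.71 and -0.84 on even and -1.24, -1.27 and -1.45 on odd arrays, a difference of 0.49 (SE 0.10). Oasl2, of the oligoadenylate synthetase family, differed by 0.57 (SE 0.17) over 5 arrays. Usp18, which removes ISG15 from proteins, differed by 0.48 (SE 0.26) with overlapping columns, control 2 alone being high at -4.03. The median was 0.32 within the controls and 0.28 within the PNP arrays. Relative to all genes it was 0.24, and 0.16 without control replicate 2, without PNP replicate 2 or with no filter on dim probes.

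Growth arrest and FOXO-linked genes had 11 of 16 measured members higher (68.8%, against 55.2% of all genes), 6 of them (37.5%, against 11.5%) with no overlap. The median was 0.0004 within the controls and 0.28 within the PNP arrays, so the shift of the list median lay in the PNP arrays. This does not hold for every member. Those with no overlap between columns and a value on every array also differed between columns within the controls. The list medians by array, not set against all genes, overlapped between columns, control 1 at 0.05 being above control 2 at 0.02. Over all genes the median was 0.01 on control 1 and -0.04 on control 2. Btg1, an antiproliferative factor, had -0.48, -0.05 and -0.07 on even and -0.86, -1.02 and -0.90 on odd arrays, and Pik3ip1, an inhibitor of PI3 kinase, differed by 0.57 (SE 0.14), while Gas2 went the other way (-0.49, SE 0.14). The list's median relative to all genes was 0.15, but 0.04 without PNP replicate 2, 0.06 with outlier spots kept and 0.06 with no filter on dim probes.

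**Figure D4:**
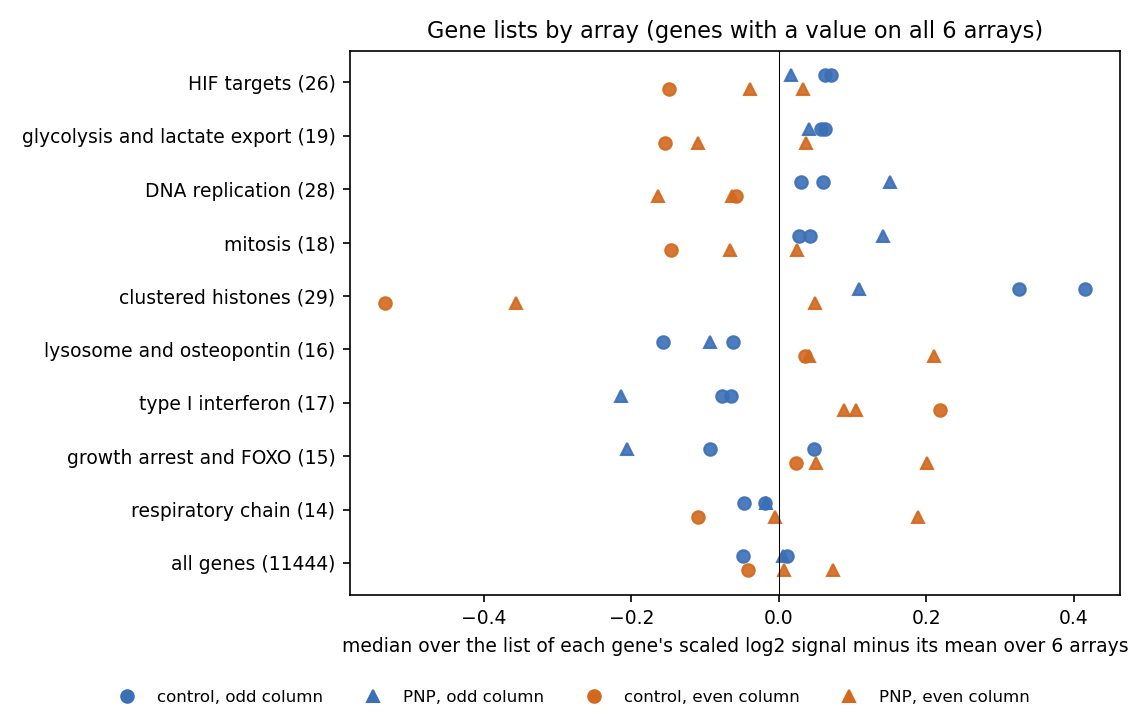
For each array, the median over a list of the gene's scaled log2 signal minus its mean over the 6 arrays (horizontal axis, log2), over members with values on all 6 arrays (number beside the name); circles are controls, triangles PNP, orange even and blue odd columns. DNA replication medians run from -0.16 to -0.06 on even and from 0.03 to 0.15 on odd arrays, and interferon medians from 0.09 to 0.22 and from -0.21 to -0.06, while HIF target medians overlap, from -0.15 to 0.03 and from 0.02 to 0.07, as do those of the growth arrest list and the respiratory chain. The values are not set against all genes, whose medians run from -0.04 to 0.07 on even and from -0.05 to 0.01 on odd arrays.

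Several other lists had medians from -0.04 to 0.07. Respiratory chain genes had a median of 0.05 with 3 of 20 higher (15%, against 11.5% of all genes) and 1 lower (against 8.39%) with no overlap, and with Uqcrc1 (0.12) and Sdhb (0.11), subunits of complexes III and II, among its largest differences. Cytoplasmic ribosomal proteins had a median of 0.02, with Rpl37 (-1.15, SE 0.29) apart from Rpl3 (-0.15). The Rpl37 value rests on 1 dim probe, with means of -3.94 on even and -2.79 on odd arrays. Immediate early genes had 10 higher and 10 lower, led by Dusp4 (-0.44), and the p53 targets had a median of 0.07 with Fas (0.48, over 5 arrays), Pmaip1 (0.33) and Ei24 (0.31). Heat shock proteins had a median of 0.05 with Dnajb4 (0.36), Hspb8 (0.31) and Dnaja1 (0.28), and NRF2 targets a median of 0.02, led by Nqo1 (0.58, SE 0.15), a quinone reductase. NF-kB and inflammatory genes had a median of 0.04, with Ccl20 (-0.98, SE 0.35) and Il6 (0.56, SE 0.18) on opposite sides. YAP and TEAD targets had a median of 0.04, with F3 (0.29) and Ccn1 (0.19), Wnt targets a median of -0.04, with Sfrp2 (-0.25), and the CCN family a median of 0.05 over 4 genes. Higher and lower with no overlap were 22.2% and 11.1% of p53 targets and 20% and 20% of heat shock proteins (all genes, 11.5% and 8.39%). These shares were 15% and 10% for immediate early genes, 18.2% and 0% for YAP and TEAD targets and 0% and 20% for Wnt targets. The CCN family had 50% and 0% with the marker Ccn5, and 33.3% and 0% without it. NRF2 targets had 11.8% and 5.88%, NF-kB genes 10.5% and 5.26% and ribosomal proteins 4.55% and 9.09%.

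Genes of ATF4 and the integrated stress response were lower for 17 of 22 (77.3%, against 44.8% of all genes). Lower with no overlap were 3 (13.6%, against 8.39%) and higher with no overlap 0 (against 11.5%). The median was -0.05, and the doses went apart, with -0.24 in controls and 0.10 in PNP arrays. Fgf21, a stress hormone, had -1.51, -0.72 and -0.42 on even and -0.09 and -0.37 on odd arrays. Matrix genes were lower for 17 of 23 (73.9%, against 44.8%) with a median of -0.09. Lower with no overlap were 4 (17.4%, against 8.39%) and higher with no overlap 1 (4.35%, against 11.5%). Col6a2 was among the lower (-0.39, SE 0.13), while the membrane protease Mmp14 was higher (0.52, SE 0.10). Cholesterol synthesis genes had a median of -0.07, again with -0.20 in controls and 0.03 in PNP arrays. The unfolded protein response had a median of 0.06, with the chaperone Hspa5 at 0.24 over 5 arrays. Higher and lower with no overlap were 0% and 11.1% of cholesterol genes and 16.7% and 0% of unfolded protein genes (all genes, 11.5% and 8.39%).

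The labelled cell type was checked against its markers. Of 14 Leydig genes measured 10 were higher and 4 lower in even columns (71.4% higher, against 55.2% of all genes), and the median was 0.08. Higher with no overlap was 1 (7.14%, against 11.5% of all genes): Por (0.35, SE 0.10), the reductase that serves steroid enzymes. Lower with no overlap were 2 (14.3%, against 8.39%), Star and Srd5a1. Star, the carrier of cholesterol into mitochondria, had -3.84, -4.36 and -4.27 on even and -3.81, -3.77 and -3.77 on odd arrays, a difference of -0.37 (SE 0.14). Nr5a1, the factor of steroidogenic cells, differed by -0.05 (SE 0.13), and Cyp17a1, which makes androgen precursors, by 0.10 (SE 0.19). Of 21 Leydig genes with a probe, 5 were above background on no array. They were Cyp11a1, the first enzyme of steroid synthesis, the luteinizing hormone receptor Lhcgr, Hsd3b6, Hsd17b3 and Nr0b1. Hsd3b1 did not pass the filter, so these Leydig genes could not be compared. Srd5a1, the 5-alpha-reductase that makes dihydrotestosterone, had -1.34, -1.50 and -1.73 on even and -0.93, -0.79 and -0.68 on odd arrays, and Akr1c14, a hydroxysteroid dehydrogenase, differed by 0.42 (SE 0.30) with overlap.

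Markers of other cell types were read because Cd68 and Spp1 are also macrophage genes. Of 20 macrophage and leukocyte markers, 11 were above background on at least 3 arrays, 5 of them higher and 6 lower in even columns. Free of overlap were 0 of these markers, against 11.5% of all genes higher and 8.39% lower. Their summed signal on the linear scale, as multiples of the 75th percentile, ran from 14.3 to 17.3 on even and from 14.8 to 16.4 on odd arrays. The list was split in detection. Ptprc, Adgre1, Tyrobp, Fcgr1, Mrc1, C1qc, Cx3cr1 and Cd163 were above background on no array. Csf1r (from 1.18 to 1.40), Cd14 (from 0.86 to 1.55) and the dimmer C1qa (from -3.71 to -2.98) were so on all 6. Myoid markers were higher for 5 of 8 (62.5%, against 55.2% of all genes). Cnn1 (0.48, SE 0.11), Myl9 (0.55, SE 0.13) and Des (0.42, SE 0.11) were so with no overlap (37.5%, against 11.5% of all genes). Acta2 (-0.04), Tpm1 (-0.08) and Tpm2 (-0.02) had lower means and overlapped. The myoid sums ran from 37.6 to 40.6 on even and from 35.3 to 38.6 on odd arrays, and Lmod1 was at background. Sertoli markers had sums from 10.5 to 13.2 and from 11.9 to 12.5, with Amh and Fshr at background. Of 6 Sertoli markers measured 4 had higher means in even columns, among them Sox9 (0.02) and Clu (0.13), and overlapped. Rhox5 (-0.57, SE 0.09) and Trf (-0.63, SE 0.13) were lower with no overlap (33.3%, against 8.39% of all genes). Germ cell sums ran from 2.42 to 3.00 and from 2.59 to 3.10. Of 6 germ cell markers measured 5 were higher in even columns (83.3%, against 55.2% of all genes), with a median of 0.23. Of these 1 (16.7%, against 11.5%) had no overlap. Of 10 endothelial markers 8 were at background. The part of other cells in the column difference was not tested, and in bulk RNA a change in the share of cells and in RNA per cell cannot be told apart.

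Differences within the doses use separate arrays, but the split was selected on the signals of all 6, so their likeness describes the split and is no independent check of it. In controls (replicate 2 minus the mean of 1 and 3) 90 of 11444 genes with all 6 values were at least 2-fold apart with no overlap, and 70 of them (77.8%) had the same sign in the PNP arrays (mean of 1 and 3 minus 2), against 57.4% of all genes. Of the 90, 55 (61.1%, against 43.6%) had that sign with no overlap, and 14 (15.6%, against 29.5%) the opposite one. Picked in the PNP arrays, 202 genes gave 135 (66.8%) of the same sign in controls and 110 (54.5%, against 41.7%) with no overlap. Across genes the differences correlated with r = 0.24 and rho = 0.23, a description over 11444 genes that share arrays, dim spots and scaling. By construction this r is the correlation of the deviations of control 2 and PNP 2 from their dose means with its sign turned, and the same correlation was larger in size for replicate 1 (-0.33). The largest control differences that also did not overlap in PNP arrays were those of H2bc7 (-1.81 in controls, -0.58 in PNP), Arpp21, a regulator of calmodulin signals (1.80 and 0.33), H2ac13 (-1.58 and -0.50), Cntnap4, a neurexin relative (1.57 and 1.76), and H3c8 (-1.52 and -0.31). Cntnap4 did not keep to the columns: it had -4.57, -4.29 and -7.55 on even and -7.63, -4.65 and -7.68 on odd arrays, was above background on 3 of the 6, and its low values have no measured size. Arpp21 also overlapped between columns, with control 2 alone high at -2.97.

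**Figure D5:**
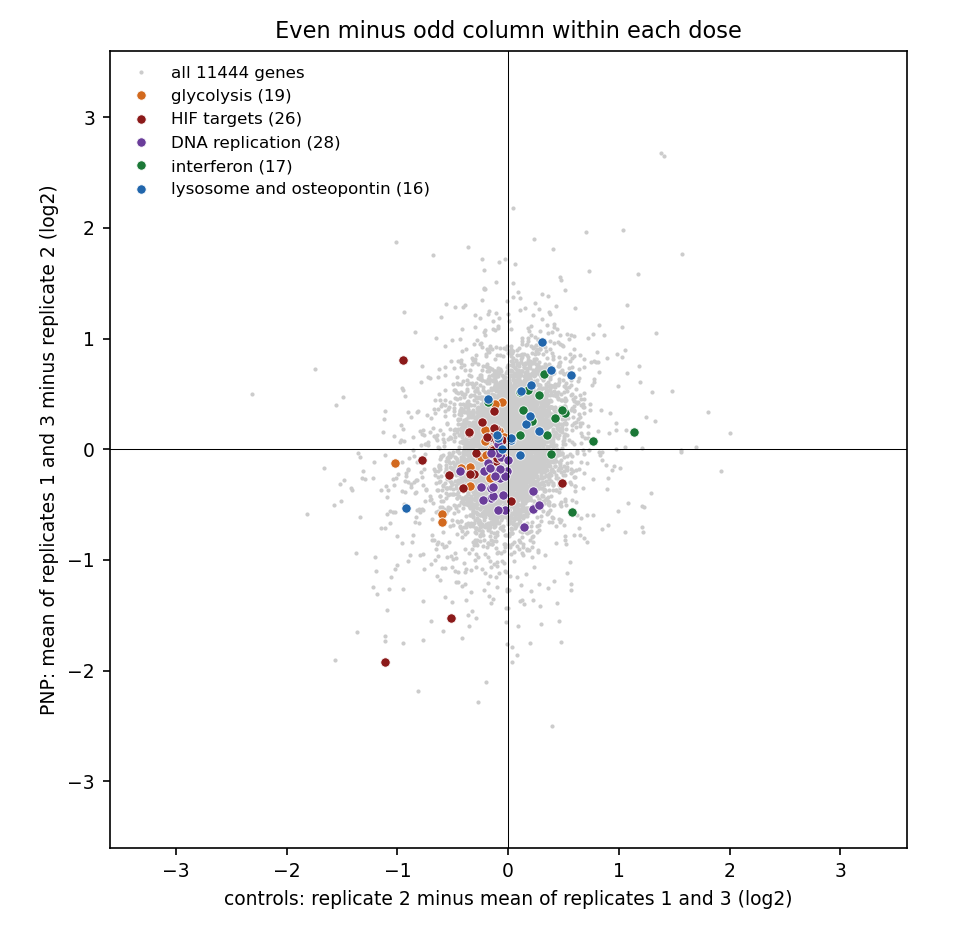
Even minus odd column difference (log2) of each of 11444 genes within controls (horizontal axis) and within PNP arrays (vertical axis), with grey points for all genes and coloured points for 5 lists (numbers of genes in brackets). The cloud is weakly tilted (r = 0.24), with 77.8% of the 90 genes past 2-fold in controls on the same side in PNP arrays.

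The effect of PNP was read with and without the column in the fit. limma called 0 of 13269 genes between PNP and control at a Benjamini-Hochberg adjusted p of 0.05 (smallest 0.220), with 829 (6.25%) at an unadjusted p below 0.05. Since the column was selected on these same signals, a fit with it is given as a description, and its p-values support no PNP effect. With slide column as a term, 1 gene (0.00754%) passed the threshold and 1083 (8.16%) had an unadjusted p below 0.05. The gene, Gm27166, a predicted gene that stands outside the rule for naming genes, had -4.86, -3.52 and -4.84 in controls 1 to 3 and -7.33, -7.69 and -7.55 in PNP 1 to 3. It was above background on all 3 control arrays and on no PNP array, so its control signal was at least 2.01-fold higher, between means of -4.40 and -7.52. It passed the filter on dim probes through the controls alone, so that a difference was bound to appear.

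Of the named genes with the smallest p in the fit with column, none other passed the threshold. Fhad1, above background on no control array, was at least 1.64-fold higher with PNP, between means of -4.85 and -5.67. It passed the filter on dim probes through the PNP arrays alone, so that a difference was bound to appear. Acss2os, an antisense transcript, had a difference of 0.75 (SE 0.10), and Mob3b, a kinase activator, one of 0.69 (SE 0.11). On the lower side stood Cd46, a complement regulator (-0.98, SE 0.14), Bdp1, of the TFIIIB factor (-0.58, SE 0.11), and Nap1l3, a nucleosome assembly protein (-1.003, SE 0.20).

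The difference of the PNP effect between columns was fitted as an interaction, again a description, because it rests on the selected columns and on 1 array in 2 of its 4 cells. By limma 1 of 11444 genes (0.00874%) passed the threshold, and 1122 (9.80%) had an unadjusted p below 0.05. The count ran from 0 under quantile normalization to 208 under median scaling. The gene, Wfdc21, a secreted whey acidic protein domain protein, had -2.99 in control 2 against -1.82 and -1.74 in PNP 1 and PNP 3, whereas in odd columns it had -2.08 and -1.86 in controls 1 and 3 against -3.65 in PNP 2. PNP minus control was thus higher by 2.89 (SE 0.23) in even than in odd columns. The values with the smallest p next to it, none past the threshold, were those of Tram2 (1.66), Il1r2 (1.61), Itln1 (-2.12), Uty (-1.80) and Prr7 (-1.79).

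Measures of the arrays themselves were compared by exact two-sided permutation tests, where 3 against 3 cannot give a p below 0.1. Of 10 measures, 1 did not overlap: the median processed signal was 383, 316 and 371 on even and 391, 392 and 394 on odd arrays (exact p = 0.1, adjusted 0.667). Without PNP replicate 1 the difference of the means was -15.1 instead of -35.7. Spots well above background made up from 59.9% to 62.2% on even and from 61.8% to 62.6% on odd arrays (exact p = 0.4), and the mean log2 signal of the spike-in probes ran from 11.2 to 11.5 and from 11.4 to 11.6 (exact p = 0.3). No spot was saturated, and precision is limited by having 6 arrays, with a median 95% interval of ± 0.27 around the column difference of a gene.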

How the data were processed

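Total RNA of 6 TM3 samples was amplified and hybridised to Agilent arrays with 1 dye, Cy3 per the labels, while the deposited files hold red-channel columns. Per the file headers, the deposited intensity values came from Agilent Feature Extraction 11.5.1.1 (10.7 per the submitters' processing notes), with background and spatial trend subtracted. The authors' deposited table holds log2 values, used as an alternative. Its making is not given in the sources used. The log2 processed signal minus the 75th percentile of each array over non-control probes was analysed in R 4.3.3 with the packages data.table (1.17.8) and limma (3.58.1). Outlier spots were dropped and spots of 1 probe averaged. A probe was used if well above background on at least 3 of 6 arrays, with at least 2 values per dose and per column set. The filter used no labels, but a probe could pass through the 3 arrays of 1 column set or 1 dose alone. For such a probe a difference was bound to appear. The brightest probe that passed stood for a gene. RefSeq accessions of GRCm38.p6 named 33767 of 56605 probes, and the array was designed on another build. Of 13269 genes, 11444 had all 6 values.

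Column differences are limma coefficients with SE, with no test; "apart" means past the stated fold with no overlap between columns. PNP minus control, with and without column, and the interaction were tested with limma (lmFit, eBayes, Benjamini-Hochberg), array measures with exact permutation tests. The fits were tested on simulated data. The members, the 28 gene lists and the rules were chosen with earlier results of these data known, and the histone list after its values were seen. Genes named are the 6 markers, the 10 largest differences per direction with all 6 values and no overlap (no clones or predicted genes), the 3 largest in each list, 7 Leydig genes, the 3 smallest p per direction for PNP given column and for the interaction, and the 5 largest control differences without overlap in PNP. Further list members were named after their values were seen, and some genes that the rule would name are not reported here. Deviations of same-numbered control and PNP samples from their dose means correlated at -0.33, -0.24 and -0.07. Each such pair lies in opposite column sets, so these values cannot show whether the numbers pair samples. No pairing was used in the main fits. Promoters are RefSeq sequences. Alternatives were other scalings, background correction, filters, outlier and probe rules, covariates and leaving out each replicate.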

Additional observations from a re-analysis of the deposited data

Results flagged for a closer look

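PNP minus control of Wfdc21 was higher by 2.89 on the log2 scale (SE 0.23) in even than in odd columns, with both PNP arrays above the control in even columns and the PNP array below both controls in odd columns. It was the 1 gene past the threshold of limma's interaction term. That term rests on columns selected on these signals and on 1 control array on the even and 1 PNP array on the odd side, so the difference has no independent test. Under other settings the number of genes past the threshold ran from 0 to 208.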

How the results depend on the processing

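Of 343 recomputed values 293 were classed as the same as the reported one, 50 as moved and 0 as changed in sign. Counts were classed by a factor of 1.5, list and marker differences by the spread among arrays, and shares by a 95% interval. Array measures were classed by sign alone, so the 293 include array measures that moved in size. The 40 genes 2-fold apart became 11 with normexp on median spot signals (chosen after seeing the data in place of normexp on mean spot signals, which was not run), 25 with probes above background on all 6 arrays, 108 with no filter and 239 at 1.5-fold; leaving out each replicate gave from 39 to 69. The 239 at 1.5-fold became 120 with normexp and 501 with no filter, and from 223 to 397 with each replicate left out. The 77.8% of control genes with the same sign in PNP arrays became 89.7% with normexp, 63.6% with no filter and 64.3% with the mean of a gene's probes. limma's PNP calls, 0, became 1 with slide column as a term and lay between 0 and 1 with a replicate left out; the replicate block gave 0 and slide row as a term 0. The interaction's 1 call became 208 with median scaling, 0 with quantile normalization, 0 in the deposited table, 26 with normexp, 60 with all 6 arrays above background, 101 with no filter, 39 with all arrays of a dose group above background and 43 with the mean of probes. List medians relative to all genes kept their direction in all 16 settings: with no filter glycolysis was -0.21, HIF targets -0.20, lysosome 0.089 and mitosis -0.22, and HIF targets were -0.10 with dose as a term. Leaving out each replicate gave from -0.87 to -0.35 for clustered histones, -0.30 to -0.16 for DNA replication, -0.18 to -0.10 for glycolysis, -0.16 to -0.086 for HIF targets, 0.10 to 0.21 for lysosome, -0.22 to -0.15 for mitosis and 0.16 to 0.29 for interferon genes. It moved the difference in median processed signal between -49.0 and -15.1, that in spots above background between -1.19 and -0.04 percentage points and that in spike-in signal between -0.21 and -0.09. The share of promoters with a match was 100% at 2-fold too, from 1 gene matched. Signal over background limits the rest: 25 of the 40 genes rest on probes above background on all 6 arrays. The causes of these moves were not tested.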
